A study of Mus musculus with 12 samples.

Results

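The comparison described here set 3 arrays labelled pcDNA3.1-MEG3 against 3 arrays labelled pcDNA3.1, 6 of the 12 arrays of the series, chosen by the transfection named in the labels. All 12 arrays carried RNA of C2C12 cells, an established line of mouse myoblasts that fuse into myotubes when serum is withdrawn, taken 72 h after transfection. pcDNA3.1 is an expression plasmid whose cytomegalovirus promoter drives an insert, and by the labels one group received the plasmid and the other the plasmid with MEG3. The remaining arrays, 3 labelled negative control and 3 labelled siRNA, entered the comparison through a shared estimate of the spread. Culture medium with serum was shared by all groups, and the species and extent of the MEG3 insert, the meaning of the title pat1 carried by the pcDNA3.1 arrays and the share of cells that took up plasmid are not given in the sources used here.

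Meg3 is a long non-coding RNA of the imprinted Dlk1-Dio3 locus, transcribed from the maternal chromosome, and has been studied as a regulator of Polycomb recruitment, of p53 and of muscle cell growth and differentiation. The design asked which RNAs differ when myoblasts carry extra MEG3. Since the plasmid promoter would drive the insert, the cell's own Meg3 promoter matters only for the endogenous RNA. It is shown here, with the promoter windows of Prss30, the transcript with the lowest adjusted p, and Des, the muscle gene with the largest difference, because the results turn on these genes. The windows run from 250 bases before to 50 bases after the RefSeq start, on the strand of the gene, in build GRCm38.p6, and all 3 genes were found in that table. Capitals mark exact matches on either strand to TGACGTCA (the cAMP response element), TATAAA (the TATA box), CCAAT (the CCAAT box) and CAGCTG (an E-box of the kind bound by myogenic factors). For Meg3, which has 2 starts in the table, the first is shown at chr12:109540746-109541045 (plus strand), for Prss30 chr17:23975181-23975480 (minus strand) and for Des chr1:75360042-75360341 (plus strand).
Meg3: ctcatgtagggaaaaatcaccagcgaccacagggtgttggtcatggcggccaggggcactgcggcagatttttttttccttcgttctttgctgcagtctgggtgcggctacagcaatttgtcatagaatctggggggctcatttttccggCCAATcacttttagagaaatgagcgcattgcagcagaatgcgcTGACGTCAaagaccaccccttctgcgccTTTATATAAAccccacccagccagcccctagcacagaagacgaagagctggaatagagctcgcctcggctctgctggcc
Prss30: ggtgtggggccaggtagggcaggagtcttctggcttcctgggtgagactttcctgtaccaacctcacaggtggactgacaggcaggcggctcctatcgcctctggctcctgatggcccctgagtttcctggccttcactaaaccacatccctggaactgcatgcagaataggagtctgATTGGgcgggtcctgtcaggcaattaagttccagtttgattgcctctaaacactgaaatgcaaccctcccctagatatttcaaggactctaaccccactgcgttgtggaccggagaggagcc
Des: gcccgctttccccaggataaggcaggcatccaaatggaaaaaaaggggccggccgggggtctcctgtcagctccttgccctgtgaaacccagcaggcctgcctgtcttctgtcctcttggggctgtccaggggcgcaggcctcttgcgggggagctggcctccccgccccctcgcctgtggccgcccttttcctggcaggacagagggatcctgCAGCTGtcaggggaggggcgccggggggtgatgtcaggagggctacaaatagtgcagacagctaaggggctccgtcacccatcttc
The Meg3 window held the cAMP response element at -57 from the start, TATA box matches at -29 and -25 that overlap on opposite strands, and a CCAAT box at -100. The Prss30 window held a CCAAT box at -72 on the reverse strand, and the Des window the E-box at -36. Over 32851 promoter windows of the same length, TGACGTCA was found in 1.79%, TATAAA in 13.6%, CCAAT in 37.4% and CAGCTG in 16.3%. These matches describe the sequence only.

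Levels are log2 signal minus the 75th percentile of each array. The 75th percentile itself lay between 1319 and 1440 on the pcDNA3.1 arrays, between 1501 and 1601 on the pcDNA3.1-MEG3 arrays and between 1168 and 2266 on the others, and 69.2% to 75.9% of probes were well above background on the 6 plasmid arrays. Replicates 1 and 2 of both plasmid groups shared 1 scan at different slide positions, and their replicates 3 shared another. That the plasmid arrays lay on 1 slide is inferred from this. The negative control and siRNA arrays were scanned separately. In each plasmid group replicates 1 and 3 held the same slide position in 2 scans. Spot by spot, their deviations had a correlation of 0.970 (pcDNA3.1) and 0.935 (pcDNA3.1-MEG3), against 0.511 and 0.489 for replicates 1 and 2. For arrays of different groups the median was 0.0221 and the highest 0.544. Replicates 1 and 3 differed by 0.258 and 0.351 times the noise among spots within an array, less than sampling noise. The 2 scans therefore entered as 1 sample and each group had n = 2. Replicates 1 and 2 also differed by less than spot noise (0.935 and 0.911 times) and may be repeats of 1 RNA. No label states that replicates came from separate cultures. The p-values then reflect the spread among these samples alone, possibly a technical one, and precision is limited by how few arrays there are. Negative control replicate 2 stood apart from replicate 1 of its group by 4.06 times the spot noise. Adjusted p-values without it are printed below for some genes given with a test, where they change the call. That setting was added after the data were seen and leaves the negative control with 1 sample. It describes how a call depends on 1 array and is no further support for a gene.

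Meg3 lay against the labels. On probe A_51_P455997, its brightest, the level was -2.47, -2.38 and -2.48 on the arrays labelled pcDNA3.1 and -7.93, -6.58 and -7.59 on those labelled pcDNA3.1-MEG3, in the order of replicates 1, 2 and 3. The groups did not overlap, and all 3 arrays labelled pcDNA3.1 were well above background while 0 of 3 labelled pcDNA3.1-MEG3 were. Taking the lowest signal well above background on each dim array as a bound, Meg3 was at least 18.9-fold dimmer on the arrays labelled pcDNA3.1-MEG3. The measured difference was -4.74 (SE 0.46, limma adjusted p = 0.0797, 8.19e-05 to 0.671 over the alternatives), which did not pass 0.05 in the fit of 8 samples.

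A second Meg3 probe, A_55_P2033407, read -4.31, -3.68 and -4.36 on the arrays labelled pcDNA3.1 and -7.87, -7.43 and -7.83 on those labelled pcDNA3.1-MEG3. It was at least 6.83-fold dimmer on the latter, again with 3 of 3 against 0 of 3 arrays well above background. The third probe, A_52_P196568, was well above background on 0 of 12 arrays. Taking the first scan by itself, the brightest probe differed by -4.83, and in the second, with 1 array per group, by -5.11. In the other groups that probe passed background on 1 of 3 arrays of the negative control (group mean -6.69) and on 0 of 3 siRNA arrays (-7.31), so that the arrays labelled pcDNA3.1 were the only group with Meg3 above background on every array. The names of the deposited arrays differ from the labels too: those labelled pcDNA3.1-MEG3 were deposited under the name of the plasmid alone, and those labelled pcDNA3.1 under the name Pat. The sample titles of the arrays labelled pcDNA3.1-MEG3, in contrast, go with the label and call them MEG3 overexpression. Those of the arrays labelled pcDNA3.1 read pat1 and do not name the plasmid. Whether the 2 groups were exchanged was not tested. Whether the 3 probes lie within the insert is not given, and every direction below holds for the labels as deposited.

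**Figure D1:**
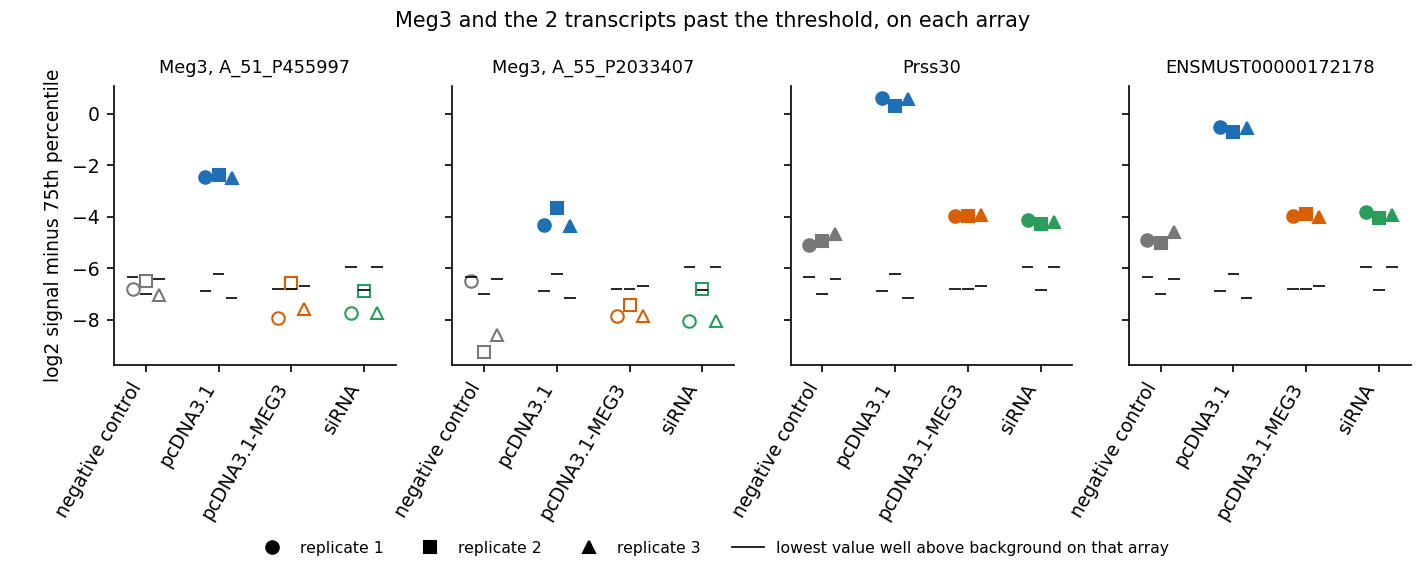
Level of the 2 Meg3 probes above background and of the 2 transcripts that passed the test, on each of the 12 arrays (y axis: log2 signal minus the 75th percentile of the array). Symbols give the replicate, open symbols a group not well above background on all its arrays, and short bars the lowest value well above background on each array. In all 4 panels the 3 arrays labelled pcDNA3.1 lie above the other 9.

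The neighbours of Meg3 in the Dlk1-Dio3 locus differed far less than Meg3 between the 2 plasmid groups. Of 8 genes listed, 5 were tested. Dlk1, the paternally expressed ligand related to Notch ligands, read -4.07, -4.27 and -4.17 on the pcDNA3.1 arrays and -4.30, -4.27 and -4.31 on the pcDNA3.1-MEG3 arrays (difference -0.09, SE 0.97). Mirg, a host transcript of the microRNA cluster, differed by -0.29 (SE 0.37), Dio3os, the transcript antisense to the deiodinase gene Dio3, by -0.23 (SE 0.20) and Begain by 0.09 (SE 0.24). None of these 4 passed the test (limma adjusted p 0.68 to 0.97), and their standard errors were as large as the differences or larger, except for Dio3os.

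Of 23980 genes tested, 2 passed an adjusted p of 0.05 (0.00834% of all), both lower on the arrays labelled pcDNA3.1-MEG3, and 0 were higher. Prss30, which encodes a trypsin-like serine protease, read 0.60, 0.29 and 0.59 on the pcDNA3.1 arrays and -3.96, -3.98 and -3.92 on the pcDNA3.1-MEG3 arrays. It fell 21.1-fold (difference -4.40, SE 0.15, limma adjusted p = 0.00346), and no array of one group came within 4 log2 units of the other. The transcript ENSMUST00000172178, probed by A_55_P2416934 and without a gene symbol here, read -0.53, -0.70 and -0.54 against -3.97, -3.90 and -4.01. It fell 10.03-fold (difference -3.33, SE 0.16, limma adjusted p = 0.0116). Leaving out 1 sample of either plasmid group ended this call each time (limma adjusted p 0.107 to 0.2999), and that of Prss30 in 3 of 4 cases (0.0625 to 0.187, and 0.0456 without pcDNA3.1 replicates 1 and 3). Like Meg3, both transcripts stood apart on the pcDNA3.1 arrays. The means of Prss30 and ENSMUST00000172178 were -4.93 and -4.88 on the negative control arrays and -4.22 and -3.98 on the siRNA arrays. On the arrays labelled pcDNA3.1-MEG3 they were -3.96 and -3.94.

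The count of calls rested on the spread borrowed from the other groups. The median SD of a gene between the samples of a group was 0.084 for pcDNA3.1, 0.070 for pcDNA3.1-MEG3, 0.108 for siRNA and 0.279 for the negative control. With negative control replicate 2 left out, 2596 genes passed, 1504 higher and 1092 lower, and with the plasmid groups fitted alone 2220 passed (9.26%), 1427 higher (5.95%) and 793 lower (3.31%). With pcDNA3.1 replicate 2, pcDNA3.1-MEG3 replicate 2 or pcDNA3.1-MEG3 replicates 1 and 3 left out, 0 genes passed (limma, 1709, 1114 and 1392 genes at an unadjusted p under 0.05). In the fit of 8 samples 2488 genes had an unadjusted p under 0.05, against 1199 expected by chance. Genes are therefore described below by size, as those at least 2-fold apart with all 3 arrays of one group above all 3 of the other. That rule carries no test.

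By this rule 884 genes (3.69%) were 2-fold apart, 653 higher (2.72%) and 231 lower (0.963%) on the arrays labelled pcDNA3.1-MEG3. The median difference of all genes was -0.16 with the 5th percentile at -0.60 and the 95th at 0.78, while 30.8% of genes lay above 0. The balance of directions depended on the arrays used: without pcDNA3.1 replicate 2 the rule gave 746 higher and 719 lower genes. The second scan by itself gave 929 and 842, and normexp background correction, after repair of spots whose background exceeded their signal, 359 and 91. Differences below are as measured, and 0.16 more positive relative to that median. The median fold was 2.50 among the higher genes (largest 7.53, 79 at 4-fold or more) and 2.33 among the lower (largest 21.1, 12 at 4-fold or more). Of the lower genes 50.6% had no reference symbol, against 33.8% of the higher and 31.3% of all genes. Among genes with a symbol, without overlap and well above background on all 6 plasmid arrays, Oog3 (-1.00085) lay nearest the cut inside it and Aknad1 (-0.999802) outside.

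**Figure D2:**
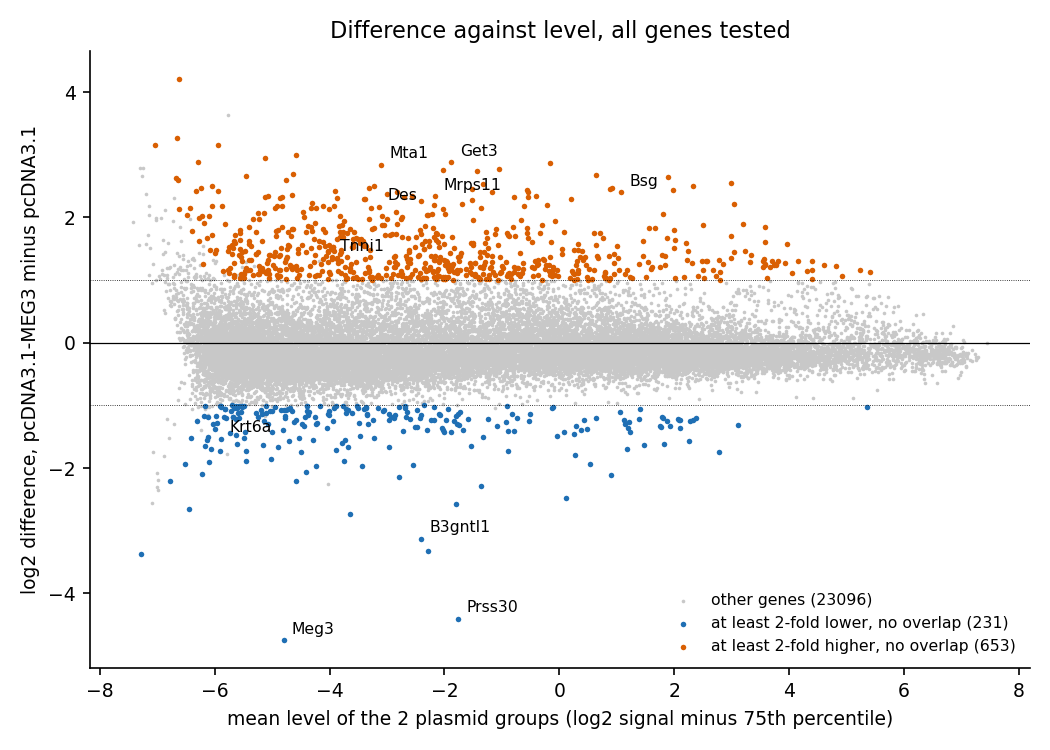
Each point is 1 of 23980 genes: the x axis gives the mean level of the 2 plasmid groups (log2 signal minus the 75th percentile) and the y axis the log2 difference, pcDNA3.1-MEG3 minus pcDNA3.1, as measured and not as a bound. Coloured points are the 653 higher and 231 lower genes at least 2-fold apart without overlap, and dotted lines mark 2-fold. Meg3 and Prss30 lie lowest at -4.74 and -4.40.

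The rule used the arrays of both scans, so the direction within a scan is largely fixed by the choice of genes and is given as a description. In the first scan 878 of the 884 genes differed in the same direction and 859 by at least 1 log2 unit, and in the second scan, with 1 array per group, 877 and 747. Other probes of the same genes were not used by the rule. Of 55 higher genes with another kept probe, all such probes went the same way for 44 (80%) and at least 1 went past 2-fold for 23. Of 19 lower genes the counts were 12 (63.2%) and 4. Over all genes, counted by probe and not by gene, 56.4% of other probes shared the direction of the brightest. That share is an unlike measure and serves as a rough background.

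The genes furthest above on the arrays labelled pcDNA3.1-MEG3, among those with a gene symbol and well above background on all 6 arrays, were of varied function. Get3, the ATPase that delivers tail-anchored proteins to the endoplasmic reticulum, read -3.41, -3.28 and -3.32 on the pcDNA3.1 arrays and -0.38, -0.47 and -0.43 on the pcDNA3.1-MEG3 arrays, a 7.37-fold difference (log2 2.88, SE 0.57). Mta1, a subunit of the NuRD chromatin remodelling complex, read -4.54, -4.56 and -4.46 against -1.71, -1.68 and -1.68, a 7.17-fold difference (2.84, SE 0.96). Bsg, basigin, the partner of monocarboxylate transporters at the plasma membrane, was the brightest of the group at -0.14, -0.11 and -0.16 against 2.20, 2.35 and 2.21 (5.29-fold). In each of these genes the 3 arrays of a plasmid group lay within 0.2 log2 units and the plasmid groups were over 2 log2 units apart. None passed in the fit of 8 samples (limma adjusted p 0.19 for Get3, 0.42 for Mta1 and 0.24 for Bsg), whereas all passed with the plasmid groups alone (0.0116 each). Arrays within the negative control label were also apart. On its replicates 1, 2 and 3 Get3 read -3.39, -1.53 and -3.43, Mta1 -4.53, -1.31 and -4.63, and Bsg -0.02, 1.83 and 0.08. In all of the 15 highest genes negative control replicate 2 lay above replicates 1 and 3.

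Others of the 15 highest act in protein and RNA handling. Mrps11 and Mrpl28, proteins of the mitochondrial ribosome, were 5.05-fold and 4.86-fold higher. Snrpb, a core protein of the spliceosomal small nuclear ribonucleoproteins, read -1.67, -1.72 and -1.69 against 0.60, 0.62 and 0.64 (4.99-fold), and Zmat5, a protein of the minor spliceosome, was 5.01-fold higher. The groups were apart on all 3 replicates of each of these 4 genes.

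Secretory and membrane enzymes were also among them. Plod1, a lysyl hydroxylase of collagen, was 5.63-fold higher on its brightest probe, but its other probe differed by 0.14. Mgat4b, which branches N-glycans, was 5.27-fold higher and Abhd16a, a phosphatidylserine lipase, 4.88-fold. Signalling and chromatin genes were Akt1s1, the inhibitory mTORC1 component PRAS40 (5.35-fold), H1f0, a linker histone (5.09-fold), and Wsb1, a substrate receptor of a ubiquitin ligase (5.06-fold). Slc25a39, a mitochondrial carrier (5.16-fold), and 5730416F02Rik (5.30-fold) complete the 15. On the siRNA arrays Wsb1 stood out from the other genes, with a mean of 1.12. It read -1.52 to -1.65 on the pcDNA3.1 arrays and 0.73 to 0.78 on the pcDNA3.1-MEG3 arrays. Negative control replicates 1, 2 and 3 read -2.36, 1.37 and -2.33 for Wsb1.

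**Figure D3:**
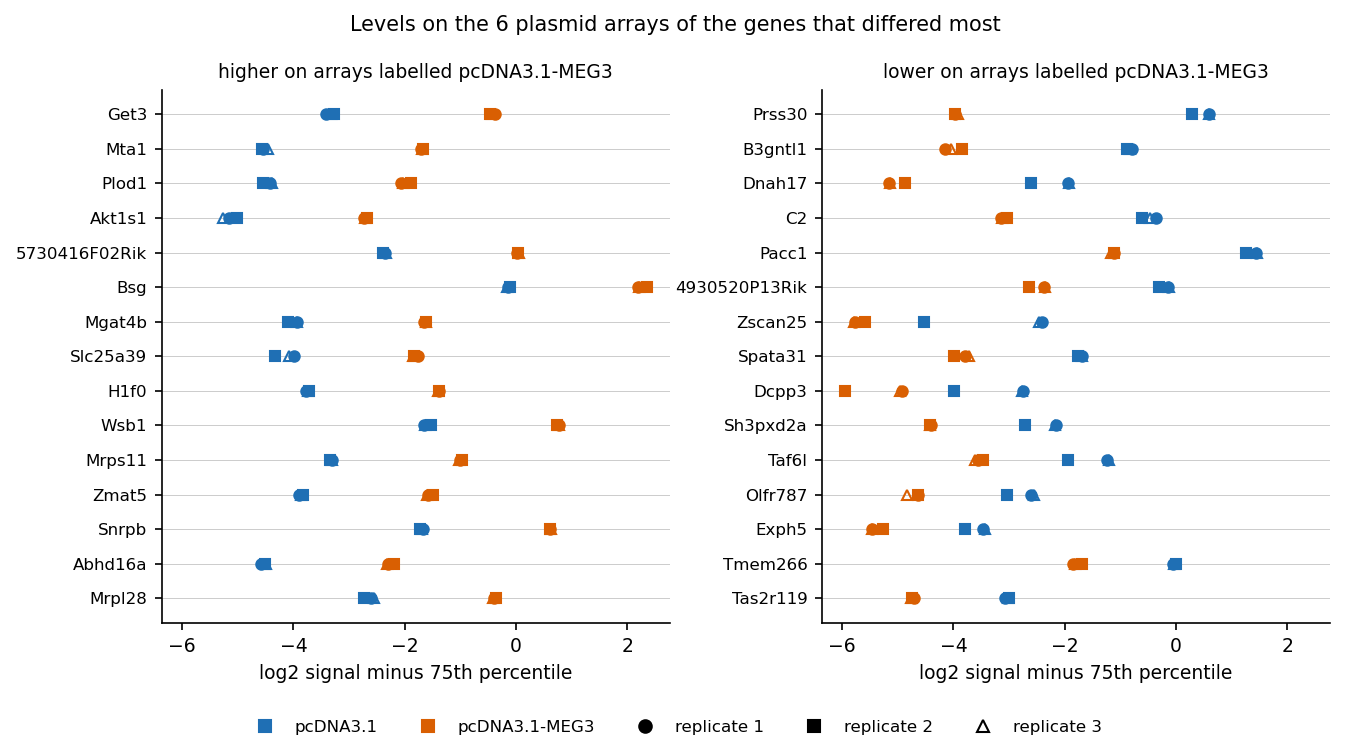
Level on each of the 6 plasmid arrays (x axis: log2 signal minus the 75th percentile) of the 15 genes furthest above and the 15 furthest below on the arrays labelled pcDNA3.1-MEG3, among genes with a symbol, 2-fold apart and well above background on all 6. Blue points are arrays labelled pcDNA3.1, orange those labelled pcDNA3.1-MEG3, and the open triangle is the second scan of replicate 1. Replicates of the genes in the left panel lie closer together than those of Zscan25 and Dcpp3 in the right panel, where pcDNA3.1 replicate 2 lies between its group and the other.

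The genes furthest below on the arrays labelled pcDNA3.1-MEG3, after Prss30, included several that are known from other tissues. B3gntl1, a glycosyltransferase-like gene, read -0.79, -0.88 and -0.82 on the pcDNA3.1 arrays and -4.15, -3.84 and -4.04 on the pcDNA3.1-MEG3 arrays, an 8.73-fold difference (log2 -3.13, SE 0.61, limma adjusted p = 0.19). C2, a complement protease, read -0.36, -0.60 and -0.47 against -3.15, -3.03 and -3.13 (5.97-fold). Dnah17, a dynein heavy chain of sperm flagella, was 6.67-fold lower and Spata31, a spermatogenesis gene, 4.43-fold. The replicates of B3gntl1, C2 and Spata31 lay within 0.4 log2 units of each other.

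Not every low gene was as tight. Zscan25, a zinc finger gene, read -2.40, -4.53 and -2.46 on the pcDNA3.1 arrays against -5.77, -5.59 and -5.79, so that replicate 2 lay 2 log2 units below the 2 scans of the other sample. Dcpp3, a salivary gland protein gene, read -2.74, -4.00 and -2.77 against -4.93, -5.95 and -4.96. Pacc1, the proton-activated chloride channel, was 5.59-fold lower on its brightest probe while its other probe differed by 0.11. The long non-coding locus 4930520P13Rik was 4.86-fold lower (log2 -2.28, SE 0.15, limma adjusted p = 0.054, and 0.0053 without negative control replicate 2) and stood nearest to the 2 transcripts that passed.

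The remaining genes of the 15 lowest lay between 3.28-fold and 3.91-fold lower. They were Sh3pxd2a (3.91-fold), the podosome scaffold Tks5, Taf6l (3.85-fold), a subunit of SAGA-type acetyltransferase complexes, Olfr787 (3.69-fold), an odorant receptor, Exph5 (3.36-fold), a Rab27 effector, Tmem266 (3.32-fold) and Tas2r119 (3.28-fold), a bitter taste receptor. On the negative control and siRNA arrays Tas2r119 had means of -6.34 and -7.90 and was well above background on 2 of 3 and 0 of 3 arrays.

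Some genes were measured in one plasmid group alone. On the arrays labelled pcDNA3.1-MEG3 259 genes were well above background on 3 of 3 arrays and on 0 of 3 labelled pcDNA3.1, against 22 the other way round. Both counts are out of 23980 genes tested. The rule was uneven, since 69.2% of probes passed background on pcDNA3.1 replicate 2, against 74.6% to 75.9% on the remaining plasmid arrays. Passing on every array was therefore harder for the pcDNA3.1 group. How far this shaped the counts was not tested, and their imbalance is no measure of direction. Vps72, a subunit of complexes that deposit the histone variant H2A.Z, read -6.38, -6.83 and -7.12 on the pcDNA3.1 arrays and -4.06, -4.21 and -4.06 on the pcDNA3.1-MEG3 arrays, at least 5.13-fold higher. Apbb1, an adaptor of the amyloid precursor protein, was at least 4.83-fold higher and Myo10, the filopodial myosin, at least 4.69-fold. Ier2, an immediate early gene, read -8.97, -8.55 and -8.86 against -4.44, -4.65 and -4.34, which gives at least 4.30-fold. In the brighter group all 4 lay between -4.65 and -3.90.

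The other 4 of the 8 largest such bounds were Cnot3 of the CCR4-NOT deadenylase complex (at least 4.21-fold), Fbf1 of the centriole appendages (3.70-fold), the histone reader Zcwpw1 (3.12-fold) and Arhgap10 (3.06-fold). In the opposite direction, after Meg3, were Olfr1105 (at least 3.1-fold lower), the keratin Krt6a (2.89-fold), Hfm1 (2.34-fold), a helicase of meiotic recombination, and Olfr859 (2.17-fold). Krt6a read -4.92, -5.42 and -4.75 on the pcDNA3.1 arrays and -6.80, -6.65 and -6.51 on the pcDNA3.1-MEG3 arrays. Together with Meg3 these were the 5 genes with a symbol past 2-fold in that direction.

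Genes of pathways were followed in 43 lists with tested genes, 646 distinct genes in all, written with earlier results of these data known. Of these, 26 (4.02%) were 2-fold higher and 3 (0.464%) 2-fold lower, against 2.72% and 0.963% of all genes, and 18 lists held none. The counts of single lists below are to be read beside these shares of all genes. Prss30 was the 1 list gene that passed the test. Of the 27 list genes 2-fold apart other than Meg3 and Prss30, 26 passed with the plasmid groups alone. So did 677 of all 884 genes 2-fold apart, 568 of the 653 higher and 109 of the 231 lower. These genes were chosen for their size on the same plasmid arrays, so passing there is no independent support. The median difference over the list genes was -0.12, against -0.16 over all genes.

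**Figure D4:**
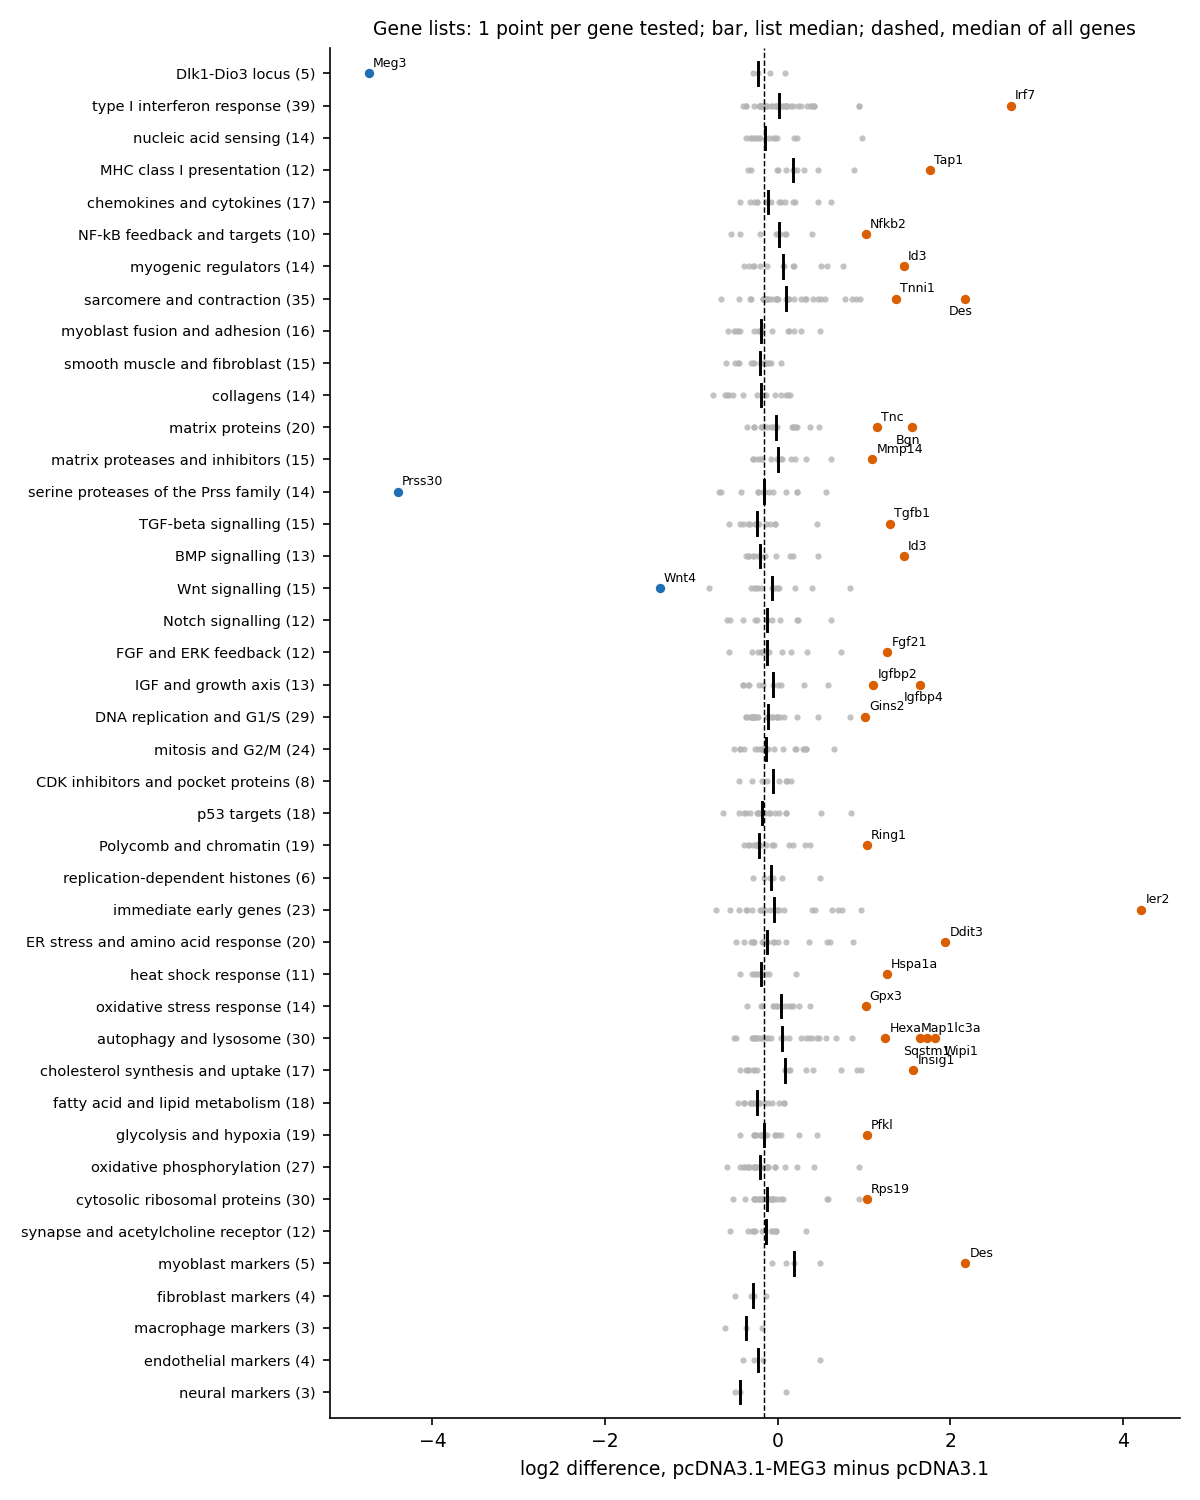
Each point is the log2 difference, pcDNA3.1-MEG3 minus pcDNA3.1 (x axis), of 1 gene of a list (rows, with the number of genes tested, lists with 3 or more). Coloured and named points are 2-fold apart without overlap, bars the list medians and the dashed line the median of all genes, -0.16. Outside the Meg3, Prss30 and Wnt4 points, every named point lies to the right of 0.

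Of muscle genes, most of the contractile genes lay short of 2-fold and the intermediate filament gene differed most. Of 35 sarcomere and contraction genes tested 2 (5.71%) were 2-fold higher and 0 lower, against 2.72% and 0.963% of all genes. The list median was 0.10. Des, desmin, the muscle intermediate filament, read -4.17, -4.26 and -4.22 on the pcDNA3.1 arrays and -2.05, -2.06 and -2.06 on the pcDNA3.1-MEG3 arrays, 4.51-fold higher (log2 2.17, SE 0.49, limma adjusted p = 0.24, and 0.0044 without negative control replicate 2). Tnni1, slow skeletal troponin I, read -4.43, -4.84 and -4.45 against -3.23, -3.30 and -3.25, 2.58-fold higher (1.37, SE 0.18, limma adjusted p = 0.16, and 0.020 without that replicate). The ranges of the 2 plasmid groups were apart by over 1 log2 unit for both genes. On negative control replicates 1, 2 and 3 Des read -3.57, -1.96 and -3.59, and Tnni1 -4.30, -4.11 and -4.38.

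The other contractile genes spread on both sides of 0. Mybph (0.96), Atp2a1 (0.91), the calcium pump of fast fibres, and Tnnc1 (0.86), cardiac and slow troponin C, had the next largest log2 differences, all short of 2-fold. Acta1, skeletal actin, differed by 0.50 (SE 0.13), Actc1, cardiac actin, by -0.31 (SE 0.47), Myh3, the embryonic myosin, by -0.09 (SE 0.44) and Ttn, titin, by -0.65 (SE 0.28). None of these passed. On the siRNA arrays, which were scanned separately, Myh3 and Myog had means of 3.44 and 1.25, above both plasmid groups, whereas the mean of Des lay between them.

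Among 14 myogenic regulators, Id3, an inhibitor of the myogenic bHLH factors, was the one gene 2-fold apart. It read -0.29, -0.37 and -0.30 on the pcDNA3.1 arrays and 1.18, 1.11 and 1.08 on the pcDNA3.1-MEG3 arrays, 2.75-fold higher (log2 1.46, SE 0.30, limma adjusted p = 0.21, and 0.0045 without negative control replicate 2). Its relatives Id1 and Id2 differed by 0.18 (SE 0.13) and -0.20 (SE 0.14). Myog, which drives terminal differentiation, read -1.92, -2.07 and -1.92 against -1.45, -1.41 and -1.44 (difference 0.57, SE 0.15), without overlap but short of 2-fold, and Myod1, the myoblast determination factor, -2.58, -2.82 and -2.58 against -2.53, -2.49 and -2.54 (0.19, SE 0.35). The fusion genes Mymk and Mymx differed by 0.14 (SE 0.27) and -0.20 (SE 0.23), and 0 of 16 fusion and adhesion genes were 2-fold apart. Of the markers of the cell line, 5 of 6 were tested and well above background on all 6 arrays (Myod1, Des, Cdh15, Vcam1 and Itga7).

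Markers of several other cell types were measured, and none was 2-fold apart. Of 4 fibroblast markers 4 were well above background on all 6 plasmid arrays, with Dcn at a mean of 4.54 and 4.26 and Pdgfra at 1.892 and 1.401 in the pcDNA3.1 and pcDNA3.1-MEG3 groups. Of 3 macrophage markers tested 3 were, of 4 endothelial markers 3, of 3 neural markers 3 and of 2 adipocyte markers 2, and the endothelial Tek was well above background on 1 of 3 pcDNA3.1 arrays. The epithelial markers (Epcam, Krt8, Krt18 and Cdh1) were not well above background on all 3 arrays of either group and 0 of 4 were tested. Between the plasmid groups the 4 fibroblast markers differed by -0.49 to -0.14 and the 3 macrophage markers by -0.62 to -0.18. The part of other cells in the results was not tested.

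Of 30 genes of autophagy and the lysosome 4 (13.3%) were 2-fold higher and 0 lower, against 2.72% and 0.963% of all genes. The list median was 0.05, against -0.16 over all genes. Wipi1, which binds the lipid of the forming autophagosome, read -3.009, -3.219 and -3.005 on the pcDNA3.1 arrays and -1.29, -1.28 and -1.29 on the pcDNA3.1-MEG3 arrays, 3.54-fold higher (log2 1.83, SE 0.18, limma adjusted p = 0.08), and its other probe differed by 0.75. Sqstm1, the cargo receptor p62, read 1.18, 1.19 and 1.19 against 2.82, 2.85 and 2.82 (3.13-fold, SE 0.49 on the log2 scale). Map1lc3a, an LC3 protein of the autophagosome membrane, was 3.33-fold higher and Hexa, the lysosomal hexosaminidase alpha chain, 2.37-fold. None of the 4 passed in the fit of 8 samples. All passed with the plasmid groups alone (limma adjusted p 0.0116 to 0.0133), the arrays on which their size was chosen.

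Several other genes of the list were short of 2-fold. Map1lc3b, the other LC3 gene measured, differed by 0.07 (SE 0.13), Lamp1 by -0.14 (SE 0.27) and Atg5 by -0.25 (SE 0.22). Tfeb, the transcription factor of lysosomal genes, differed by 0.87 (SE 0.27) at a low level. Members on the 2 sides of 0 numbered 16 above and 14 below.

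Stress and immediate early genes gave 1 member each. Ddit3, the stress transcription factor CHOP, read -1.02, -1.06 and -1.08 on the pcDNA3.1 arrays and 0.86, 0.93 and 0.84 on the pcDNA3.1-MEG3 arrays, 3.84-fold higher (log2 1.94, SE 0.18, limma adjusted p = 0.08, and 0.0044 without negative control replicate 2), while Atf4, which acts upstream of it, differed by 0.0098 (SE 0.34) on its brightest probe and by 2.39 on another. It was the 1 gene 2-fold apart of 20 in the list of endoplasmic reticulum stress. Hspa1a, the inducible HSP70, was 2.40-fold higher (1 of 11 heat shock genes) and Gpx3, a secreted glutathione peroxidase, 2.03-fold (1 of 14 oxidative stress genes). Fos and Fosb differed by -0.04 (SE 0.15) and -0.29 (SE 0.30), beside Ier2 as the 1 of 23 immediate early genes past 2-fold.

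In the interferon list 1 of 39 genes (2.56%) was 2-fold higher, against 2.72% of all genes, and 0 were lower. Irf7, the regulator that amplifies type I interferon production, read -6.04, -5.80 and -6.30 on the pcDNA3.1 arrays, where 2 of 3 were well above background, and -3.25, -3.35 and -3.21 on the pcDNA3.1-MEG3 arrays, at least 6.49-fold higher (limma adjusted p = 0.08, and 0.017 without negative control replicate 2). Bst2, tetherin, and Ifi35 followed at 0.95 (SE 0.12) and 0.94 (SE 0.14), short of 2-fold, and the median was 0.02. Ifit1, an interferon-induced antiviral gene, differed by 0.10 (SE 0.17) and Rsad2 by 0.28 (SE 0.14). On the other groups' arrays, which were scanned separately, Rsad2 lay lower. It had means of -0.30 and -0.02 in the plasmid groups, against -7.02 and -4.45 on the negative control and siRNA arrays. Scan and transfection cannot be told apart for that contrast.

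Of 12 genes of antigen presentation by MHC class I, Tap1, a subunit of the peptide transporter, read -4.38, -4.49 and -4.43 against -2.70, -2.66 and -2.72, 3.40-fold higher (log2 1.76, SE 0.44, limma adjusted p = 0.28, and 0.0045 without negative control replicate 2). Psmb8, an immunoproteasome subunit, followed at 0.89 (SE 0.15), while Tap2, its transporter partner, differed by 0.19 (SE 0.14) and B2m, the shared light chain, by -0.34 (SE 0.22). The list median, 0.18, was the second highest after that of the 5 myoblast markers (0.19). Nfkb2 was 2.03-fold higher, 1 of 10 genes of NF-kB, and 0 of 17 chemokines and cytokines were 2-fold apart (Ccl2 -0.12, SE 0.13, and Ccl5 -0.23, SE 0.22).

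Growth factors and the matrix gave scattered members, mostly higher. Tgfb1, a ligand of TGF-beta receptors, read -2.38, -2.40 and -2.39 on the pcDNA3.1 arrays and -1.10, -1.07 and -1.11 on the pcDNA3.1-MEG3 arrays (2.47-fold, log2 SE 0.55), and Tgfb2 differed by -0.26 (SE 0.12). Igfbp4 and Igfbp2, binding proteins that carry insulin-like growth factors, were 3.15-fold and 2.16-fold higher, with 1.76 on the other probe of Igfbp2, while the ligands Igf1 and Igf2 differed by -0.40 (SE 0.34) and 0.0012 (SE 0.18). Fgf21, an endocrine growth factor, was at least 2.41-fold higher. Bgn, biglycan, and Tnc, tenascin C, were 2.94-fold and 2.22-fold higher of 20 matrix proteins, and Mmp14, a membrane-bound matrix protease, 2.14-fold of 15. No collagen of 14 was 2-fold apart (Col1a2 0.10, SE 0.27).

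Wnt4 was the 1 pathway gene, apart from Meg3 and Prss30, that lay 2-fold lower. It read -1.22, -1.52 and -1.20 on the pcDNA3.1 arrays and -2.78, -2.71 and -2.73 on the pcDNA3.1-MEG3 arrays (2.58-fold, log2 -1.37, SE 0.22, limma adjusted p = 0.17, and 0.020 without negative control replicate 2), but its other probe differed by 1.18 in the opposite direction. Its direction is therefore not settled by these arrays. The Wnt target Axin2 differed by -0.05 (SE 0.24), and 0 of 12 Notch genes were 2-fold apart.

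Genes of growth and metabolism were close. In the lists of DNA replication (29 genes), Polycomb and chromatin (19), glycolysis and hypoxia (19), cholesterol (17) and cytosolic ribosomal proteins (30) 1 gene each was 2-fold higher: Gins2 (2.02-fold), Ring1 (2.05-fold), the glycolytic enzyme Pfkl (2.04-fold), Insig1 (2.97-fold), which retains the sterol sensor in the endoplasmic reticulum, and Rps19 (2.04-fold). Ezh2 and Eed, core Polycomb subunits, differed by -0.35 (SE 0.23) and -0.24 (SE 0.21). In mitosis (24 genes), p53 targets (18), CDK inhibitors (8), oxidative phosphorylation (27) and lipid metabolism (18) 0 genes were 2-fold apart. On their brightest probes Ccnb1 differed by -0.26 (SE 0.24), Cdkn1a by 0.01 (SE 0.17) and Mdm2 by -0.63 (SE 0.30). Other probes differed by 0.13 and 0.60 for Ccnb1 and by -0.36 for Cdkn1a. Trp53 itself was 1.81-fold higher at 0.85 (SE 0.56). Under median centring Nfkb2, Gpx3, Gins2, Pfkl and Rps19, all between 2.02-fold and 2.04-fold, were no longer 2-fold apart. With quantile normalisation and in the authors' series values, in contrast, lists gained members: the sarcomere list held 4 higher genes, the interferon and cholesterol lists 2 each, and oxidative phosphorylation and nucleic acid sensing 1 each.

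**Figure D5:**
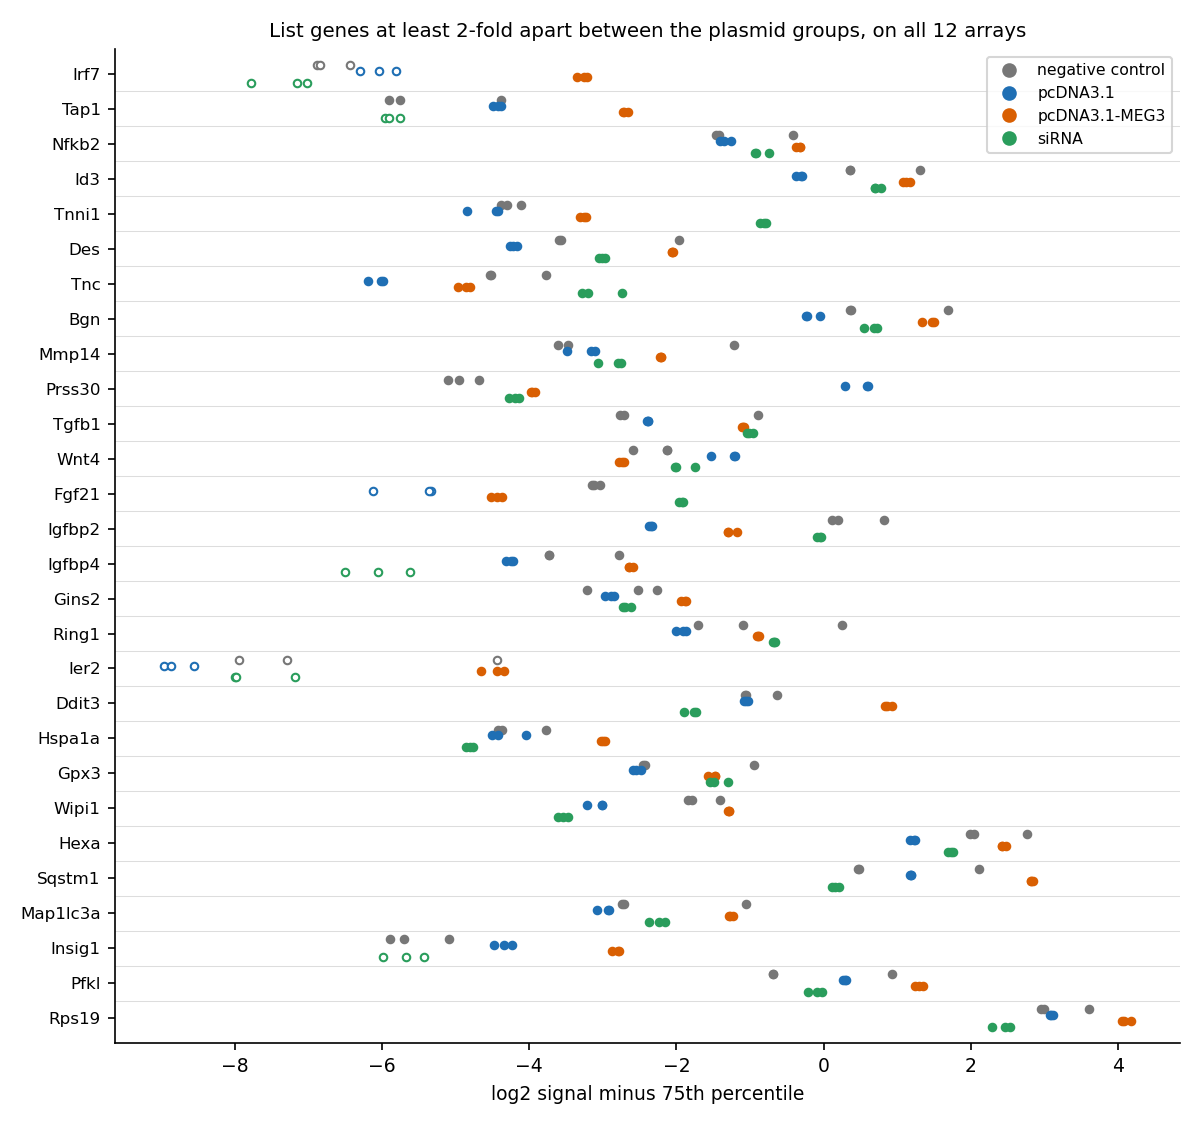
Level on all 12 arrays (x axis: log2 signal minus the 75th percentile) of the list genes at least 2-fold apart between the plasmid groups, other than Meg3. Each point is 1 array, coloured by group, and open points mark groups not well above background on all 3 arrays. The orange points (pcDNA3.1-MEG3) lie to the right of the blue (pcDNA3.1) in every row except Prss30 and Wnt4, whereas the negative control and siRNA points lie on either side.

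The levels of the 2-fold genes in the other groups were also set beside those of the plasmid groups. Of the 231 lower genes 104 (45.02%) were at least 2-fold above all 3 other groups on the arrays labelled pcDNA3.1, as Meg3 and Prss30 were, and 16 (6.93%) at least 2-fold below all others on the arrays labelled pcDNA3.1-MEG3. Of the 653 higher genes 172 (26.3%) were 2-fold above all other groups on the arrays labelled pcDNA3.1-MEG3 and 56 (8.58%) 2-fold below all others on the arrays labelled pcDNA3.1. The genes were chosen on the plasmid groups, and lower genes had to be well above background on all pcDNA3.1 arrays. The same counts were not made over all genes, and the other groups were scanned separately. These counts therefore describe levels and test nothing.

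Beyond the lists, 2 gene families were looked at after their values had been seen. Of 610 odorant, taste and vomeronasal receptor genes 12 (1.97%) were 2-fold lower and 2 (0.328%) higher, against 0.963% and 2.72% of all genes, among them Olfr1030 (log2 -1.67), Tas2r118 (-1.29) and Olfr1232 (-1.15). Of 77 mitochondrial ribosomal protein genes 3 (3.90%) were 2-fold higher, Mrps11, Mrpl28 and Mrps5 (1.51), and 0 lower, with a family median of -0.11 against -0.16 over all genes. Receptors lower against higher numbered 10 and 2 with quantile normalisation, 13 and 1 with median centring and 10 and 1 in the authors' series values, but 4 and 0 with the repaired normexp background. The ribosomal counts were 3 and 0, higher against lower, in each of these 4 settings, a share near that of all genes.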

How the data were processed

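RNA of 12 single-colour Agilent arrays was scanned, and the authors deposited each array's scanner output. Per the file headers, spot intensity on a linear scale came from Agilent Feature Extraction 11.0.1.1, already background-subtracted, with other columns of flags of 0 or 1. The processed values the authors deposited for the series holds processed intensity with column medians of 276 to 277, whose centring is unstated, whose ranks follow the scanner signal, and which served as an alternative. Of 44397 spots per array 1377 were controls and 0 saturated. Outlier spots were left out and the rest averaged to 39429 probes, of which 27234 matched a RefSeq symbol by accession (the others kept the name in the files). Each array's processed signal was divided by its 75th percentile and taken to log2. Probes well above background on all arrays of at least 1 plasmid group were kept (28884), and the brightest stood for its gene. Replicates 1 and 3 of every group were averaged. Those of the negative control lay at different slide positions in 1 scan, with a spot deviation correlation of 0.409, and were not 2 scans of 1 position. They were averaged because they differed by 0.797 times spot noise, although plasmid replicates 1 and 2, also below spot noise, were kept apart. Negative control replicate 2 therefore counted as 1 of the 2 samples of its group in the shared spread. Differences were tested (two-sided) by limma 3.58.1 under R 4.3.3 in 1 fit of 4 groups and 8 samples, which left 4 residual degrees of freedom (1.90 more from the prior), with Benjamini-Hochberg adjustment. The fit was tested on simulated data. Where the dimmer group was not well above background on all 3 arrays, a fold is a bound: the bright group's average minus that of, per dim array, its lowest signal well above background or the probe's value if higher. A sample value was missing for 509 genes. Named were every Meg3 probe, the Dlk1-Dio3 genes, called genes, the 15 highest and 15 lowest, the 8 largest bounds in each direction, and from each list up to 4 genes 2-fold apart and its first 2; relatives of these and gene families were added after their values were seen. The members and all 44 lists (704 symbols) were chosen with earlier results of these data known. Same-numbered replicates did not deviate together across the groups (r = -0.0758, -0.0765 and -0.0360), so numbers do not pair samples. Alternatives covered the samples counted, background, scaling, filter, probe choice and each left-out sample.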

Additional observations from a re-analysis of the deposited data

How the results depend on the processing

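The results were recomputed under 18 other settings. Counting 12 arrays as 12 samples gave 3046 called genes, fitting the plasmid groups alone 2220, the first scan alone 2023, quantile normalisation 10 and the authors' series values 11, and both transcripts called in the fit of 8 samples passed in each. Under the replicate block 1 gene was called (Prss30, with ENSMUST00000172178 at adjusted p = 0.0612). Leaving out 1 sample gave 0 to 2596 called genes, the highest without negative control replicate 2, 884 to 1465 genes 2-fold apart, a median of all genes of -0.22 to -0.11 and a Meg3 difference of -5.33 to -4.15 (-4.69 without pcDNA3.1 replicate 2). The 1465, without pcDNA3.1 replicate 2, were 50.9% higher genes, against 73.9% with all arrays, and 63.4% of 1212 were higher without pcDNA3.1-MEG3 replicates 1 and 3. The second scan alone and the fit without negative control replicate 2 were added after the data were seen. The second scan gave 1771 genes 2-fold apart (52.5% higher). Meg3 passed with 12 samples (-4.92, limma adjusted p = 8.19e-05), with the plasmid groups alone (-4.74, adjusted p = 0.0268), in the first scan (-4.83, adjusted p = 0.0334) and without negative control replicate 2 (-4.74, adjusted p = 0.0184).

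The planned normexp background correction, run on median spot signals because the files give no mean signal, gave unlike background fits between arrays. On pcDNA3.1 replicates 1 and 3 and siRNA replicate 2 a few spots (7, 9 and 13) had a local background above their signal, up to 47985, 56502 and 264044 units, and the fitted mean of the background was -904, -796 and -1006 there against 7.31 to 13.9 elsewhere. It gave 0 called genes (261 at an unadjusted p under 0.05), 5572 genes 2-fold apart and a median of -0.50, and turned the sign of Irf7 (-0.36), Vps72 (-0.92), Apbb1 (-0.78), Myo10 (-0.73), Ier2 (-0.75), Cnot3 (-0.85), Fbf1 (-1.03), Tap1 (-0.12), Igfbp4 (-0.079), Zcwpw1 (-1.13), Arhgap10 (-0.97), Insig1 (-0.13), Tnni1 (-0.68), Fgf21 (-0.94), Hspa1a (-0.55) and Tnc (-1.10). With those spots given the median background, also added after the data were seen, no named gene changed sign, 19 genes were called, 450 were 2-fold apart (359 higher) and Meg3 passed (-2.24, limma adjusted p = 0.0258). Of 1228 recomputed values of named genes 959 kept their direction and side of the threshold, 243 newly passed, 10 no longer passed and 16 changed sign, the latter under normexp as planned alone.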
